A study of Mus musculus with 16 samples.

Results

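The kappa light-chain units outside the V kappa 21 family were followed across 8 samples of mouse follicular B cells. A unit is a gene symbol, or, where the array's annotation led to none, the accession or name in the file, and it is read by its brightest probe. Probes were taken by name and annotation: a gene name starting with Igk, or a description of a kappa chain or of a light-chain variable region. The rule took 62 probes, of which 6 V kappa 21 probes were left out and 5 were set aside because they measure NF-kB, whose gene descriptions also contain the words kappa and light chain. The 51 remaining probes made 46 units of the 27651 on the array. Of these 14 have a symbol and 32 go by the name in the file. The files place 44 on chromosome 6 of the mm7 build and LOC383196 on chromosome 17, and give no position for U55685.

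All samples were follicular B cells of C.B17 mice, profiled on dual-colour Agilent arrays against a common reference RNA of 6 cell lines (the labels list EL4, J558, R1, DN3, RS2 and P388d). Auto.Pos (n = 2) are AGcAμκTg mice, which carry the VH3609μ heavy chain and, by the sample source label, the Vk19-17κ light chain as transgenes and are reactive to intestinal goblet cells; another label field of the same samples writes Vkappa17-17kappa. Auto.Neg (n = 2) are ATAμκTg mice, which carry VH3609μ and Vk21-5κ and whose antigen, Thy-1, is knocked out. WT (n = 2) are wild type. Edited and Non-edited (n = 1 each) come from VH3609t +/- by Vk21-5Tg +/- mice on the same Thy-1 knockout. Nothing in the labels tells if the samples of 1 group are separate mice, and a p-value here reflects the spread between the samples alone, which may be technical.

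A kappa light chain is made when a B cell joins 1 of many variable (V) segments to a joining (J) segment, and the joined exon is spliced to the single constant (C) exon. A rearranged light chain that pairs well normally stops further rearrangement in that cell, which is known as allelic and isotype exclusion. A cell whose receptor is autoreactive can continue to rearrange and replace its light chain, which is known as receptor editing. A population that carries a light-chain transgene therefore has 2 possible sources of V kappa transcripts, the transgene and the endogenous locus, and a probe of 60 bases reads both where their letters are alike.

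The probes below are those on which the results turn. In the first pair, capitals mark the bases that are identical where the probes of ENSMUST00000066275 (chr6:70092051-70092110, minus strand) and LOC669070 (chr6:70475512-70475571, minus strand) overlap, 38 of 43 bases. Both are annotated as similar to the V-V region of MPC11.
ENSMUST00000066275: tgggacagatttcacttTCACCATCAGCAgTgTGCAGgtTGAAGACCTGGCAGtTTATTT
LOC669070: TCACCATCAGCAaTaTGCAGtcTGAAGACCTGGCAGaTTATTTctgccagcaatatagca
For Auto.Pos minus WT these 2 units had log2 differences of opposite sign, 2.17 for ENSMUST00000066275 and -2.29 for LOC669070. The Auto.Pos samples of LOC669070 had log2 ratios of 1.09 and 1.56 and its WT samples 4.05 and 3.19 (SE 0.373, limma adjusted p = 0.311).

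The next 3 probes run across the V-J junction, so that they hold V letters and, at their end, the first letters of a J segment. Capitals mark ACGTTCGG, the longest run that the 3 share. Igkv6-14 (chr6:70424460-70424519, minus strand) is named Igk-V19-14 in the file and described as a Vk19 light chain. U55685 is described as an anti-DNA light chain, and L18942 as the VJ region of the AbH130 light chain (chr6:70722138-70740584, plus strand, a span longer than the probe).
Igkv6-14: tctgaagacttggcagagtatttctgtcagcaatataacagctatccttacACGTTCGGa
U55685: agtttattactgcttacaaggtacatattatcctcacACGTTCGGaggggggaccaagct
L18942: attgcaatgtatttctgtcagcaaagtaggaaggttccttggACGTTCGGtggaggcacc
Searched on both strands, ACGTTCGG was in 9 of the 41174 probes on the array (0.0219%), and in 3 of the 46 kappa units, those shown. The run was taken from these 3 probes, so its presence in them was fixed by that choice. A match describes the letters and does not show which transcript bound.

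The last 3 are the brightest unit, AF152371 (chr6:68233198-68233257, plus strand), described in the file as the kappa light chain of the antibody Mab7, and 2 V units that read lower in Auto.Pos than in Auto.Neg, LOC669091 (chr6:70359014-70359073, minus strand) and Igkv14-111 (chr6:68232832-68232891, plus strand).
AF152371: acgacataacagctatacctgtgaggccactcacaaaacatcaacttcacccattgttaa
LOC669091: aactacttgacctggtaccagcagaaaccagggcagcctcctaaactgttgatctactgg
Igkv14-111: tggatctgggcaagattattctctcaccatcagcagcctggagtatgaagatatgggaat
No unit of the rule is annotated as a constant or joining segment. As background, the letters of the AF152371 probe are those of the end of the coding part of the kappa constant exon, although the file places it at a V position. Whether it reads 1 V chain or kappa RNA with any V segment was not tested. Many V probes are close copies of each other: 22 pairs, formed by 23 units, were identical at 80% or more of at least 40 overlapping bases, so values of such units may share transcripts and are not independent.

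Each value below is the log2 of sample over reference, averaged over the dye-swap pair of arrays, so it compares samples and not units. A unit was tested where at least 2 samples had it marked by the scanner software as well above background on both arrays, in the channel that held the sample. That left 45 units, without U29594, among 20462 units of the whole array. Of the 45, 9 reached the filter only through WT or Edited samples, so they were in part selected by their signal there. That favours higher values there, by an amount that was not tested. The counts below include these 9. For each comparison, the median and the counts of units higher and lower are also given over the other 36 units. This choice was made after the data were seen. Counts within a protocol or scan day, calls under other fits, medians by position and correlations are given with the 9 included only. In 14 units the reference was well above background on 3 or fewer of the 16 arrays. The arrays detected 61.9% to 81.9% of all probes in the sample channel. The WT 2 arrays stood apart: their 2 readings of the kappa units differed by a median of 1.5 log2, against 0.10 to 0.22 in the other 7 samples, and the array with WT 2 in Cy3 had a median signal of 1039 in red, where the other arrays had at most 286.8.

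Of all 46 units, before any filter, 33 and 36 were well above background on both arrays of the Auto.Pos samples, 35 and 35 in Auto.Neg, 45 and 44 in WT, 44 in Edited and 33 in Non-edited. The median log2 ratio over the 45 tested units was 0.22 and 0.64 in Auto.Pos, 0.66 and 0.94 in Auto.Neg, 3.41 and 3.14 in WT, 3.96 in Edited and 0.96 in Non-edited. By these medians the 6 samples of the replicated groups fell into low transgenic and high WT values with no overlap. The medians include the 9 units that needed WT or Edited to be tested. They were not taken over the other 36 units alone. In bulk RNA, fewer cells that use a V segment and less RNA per cell cannot be told apart.

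**Figure D1:**
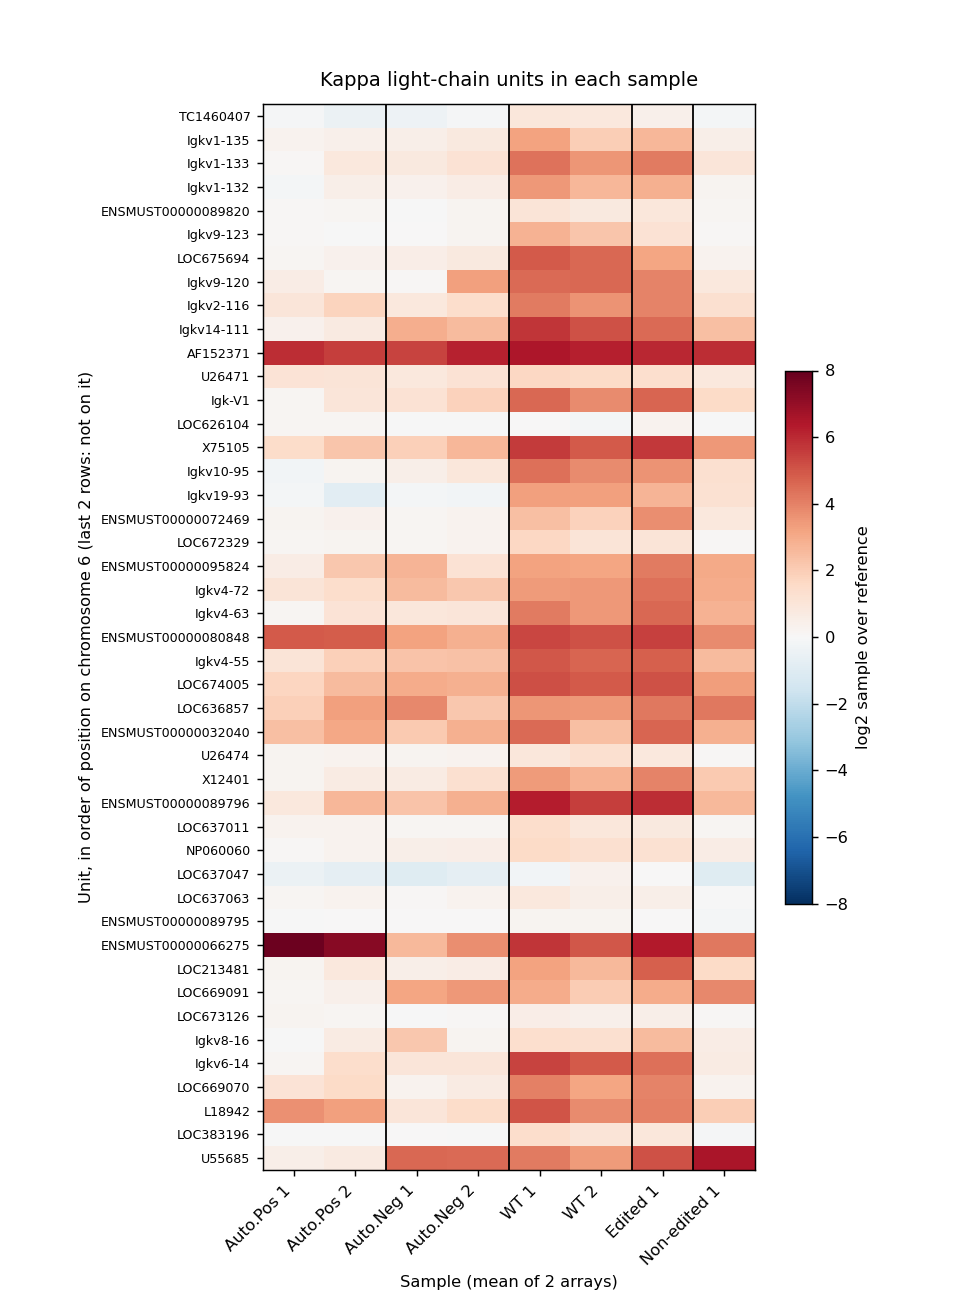
Log2 ratio of sample over reference (colour) for the 45 tested kappa units (rows, in order of position on chromosome 6, with the 2 units not placed there last) in the 8 samples (columns, each the mean of 2 arrays). Most rows are pale in Auto.Pos, Auto.Neg and Non-edited and dark in WT and Edited; ENSMUST00000066275 is darkest in Auto.Pos, at 7.81 and 7.25.

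AF152371 was the brightest kappa unit, with a mean log2 intensity of 14.85. It had log2 ratios of 5.94 and 5.52 in Auto.Pos, 5.42 and 6.18 in Auto.Neg, 6.47 and 6.20 in WT, 6.03 in Edited and 5.90 in Non-edited. The differences were -0.07 for Auto.Pos minus Auto.Neg, -0.61 for Auto.Pos minus WT and -0.54 for Auto.Neg minus WT, each with an SE of 0.333 and a limma adjusted p of 1. Edited minus Non-edited was 0.13, with 0.37 in Cy5 and -0.11 in Cy3. The dye orientations of this unit were far apart in every sample, with the higher ratio in Cy5. Auto.Pos 1 read 6.87 in Cy5 and 5.00 in Cy3, and Edited 7.67 and 4.39. The means above therefore average unlike readings, and small differences between them are uncertain. The dimmest tested unit, LOC673126, had a mean log2 intensity of 6.40 and was not well above background on any array of Auto.Pos, Auto.Neg or Non-edited.

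The first comparison asks how the endogenous V kappa repertoire of the goblet-cell-reactive transgenic B cells differs from that of WT cells. Of the 45 units, 43 read lower and 2 higher in Auto.Pos, with a median difference of -2.21 log2, against 0.07 over all 20462 units. Over the 36 units that did not need WT or Edited to be tested, 35 read lower and 1 higher, with a median of -2.34. At least 2-fold lower in all 4 pairs of samples were 26 units, 24 of them among those 36, and 1 was as much higher; over the whole array 0.621% of units were that much lower and 0.43% that much higher. No kappa unit passed a limma adjusted p of 0.05 (Benjamini-Hochberg over all units), nor did any other unit of the array (0%). An unadjusted limma p under 0.05 was found for 33 kappa units, 28 of them among those 36, and for 1153 of all units. The lowest adjusted p was 0.0902. With scan day as a random block limma called 36 kappa units, and 20.4% of all units with them. Without WT 2 the median was -2.20.

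Igkv14-111, a V segment, stood lowest relative to WT. The Auto.Pos samples read 0.33 and 0.71, the WT samples 5.74 and 5.11. The groups did not overlap, and the difference of -4.91 (SE 0.31, adjusted p = 0.0902) is 30-fold lower. LOC675694, annotated as similar to the EV15 V region, read 0.14 and 0.32 in the Auto.Pos samples and 4.91 and 4.60 in the WT samples, a difference of -4.53 (SE 0.223, adjusted p = 0.0902). Both units were close to the reference in Auto.Pos and far above it in WT. The Auto.Pos values of Igkv10-95 were -0.23 and 0.24, and its WT values 4.43 and 3.81 (difference -4.11, adjusted p = 0.0902). Its other 2 probes gave -1.58 and -1.69. For Igkv19-93 the Auto.Pos samples gave -0.17 and -0.87 and the WT samples 3.25 and 3.28 (difference -3.79, adjusted p = 0.0902).

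Igkv6-14, a member of the Vk19 family to which the Auto.Pos light chain belongs by the source label, was also low in Auto.Pos. Its values there were 0.15 and 1.43, and in WT 5.42 and 4.88, a difference of -4.36 (SE 0.47, adjusted p = 0.171). It was not well above background on either array of Auto.Pos 1, so the value of that sample is uncertain. ENSMUST00000066275 and LOC669070, annotated as similar to MPC11, were listed with it as tied to that family. They differed from WT by 2.17 and -2.29, so the units listed for the family did not all read low. The remaining 5 of the 10 units furthest below WT, Igkv9-120, ENSMUST00000089796, Igk-V1, Igkv1-133 and X75105, had differences of -4.20 to -3.39 and adjusted p of 0.18 to 0.576. The second probe of ENSMUST00000089796, which is dimmer, gave -1.31 in place of -4.18.

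ENSMUST00000066275 went the other way. The Auto.Pos samples had log2 ratios of 7.81 and 7.25 and the WT samples 5.75 and 4.98, and it was the only kappa unit at least 2-fold higher in all 4 pairs (difference 2.17, SE 0.484, adjusted p = 0.52). A second probe on the same transcript, which the rule did not take, lies at 70092163 to 70092222 with values of 0.15 and 2.05 for Auto.Pos and of 3.71 and 2.96 for WT, a difference of -2.24. The 2 probes of this transcript thus differed in sign.

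Auto.Pos and WT could be compared within a scan day and within each of 2 extraction protocols. On the scan day that holds Auto.Pos 2 and WT 2, which share a protocol as well, the median difference of the units was -1.58 with 42 of 45 lower. Under the other protocol, Auto.Pos 1 against WT 1 gave -2.62 with 43 of 45 lower. Those 2 samples were read on different scanners, days and slides, with software versions 9.1.1.1 and 9.1.3.1.

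**Figure D2:**
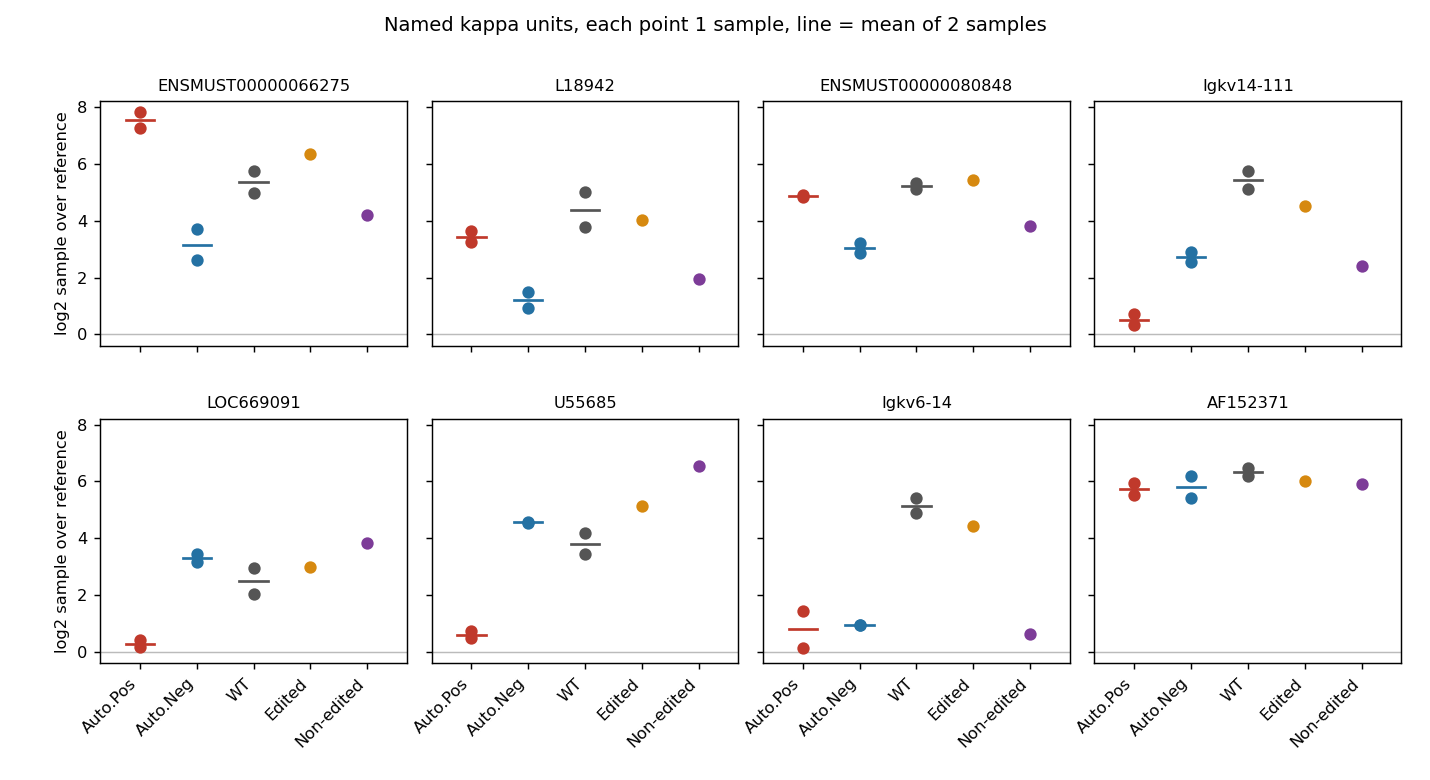
Log2 ratio of sample over reference for selected kappa units, with 1 point per sample, grouped as Auto.Pos, Auto.Neg, WT, Edited and Non-edited. The Auto.Pos points of Igkv14-111 (0.33 and 0.71) lie below all others of that unit, the Auto.Pos points of ENSMUST00000066275 above all others.

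In Auto.Neg, whose light-chain transgene is V kappa 21, the same comparison with WT asks how much of the other V kappa repertoire was read. It shares the WT samples with the first comparison. Of the 45 units, 42 read lower and 3 higher, with a median difference of -1.98 log2, against 0.04 over all units. Over the 36 units 34 read lower and 2 higher, with a median of -2.19. At least 2-fold lower in all 4 pairs were 24 units, 23 of them among the 36 (0.543% over the array), and 0 were that much higher (0.464%). By limma 0 kappa units were called at an adjusted p of 0.05, and none was called on the whole array (0%). An unadjusted limma p under 0.05 was found for 34 kappa units, 29 of them among the 36, and for 942 of all units. The lowest adjusted p of a kappa unit was 0.146. With scan day as a random block 19 kappa units were called, and 2.24% of all units. Without WT 2 the median was -2.24.

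Igkv6-14 stood furthest below WT, with log2 ratios of 0.94 and 0.96 in the Auto.Neg samples and of 5.42 and 4.88 in the WT samples. Its 2 Auto.Neg samples nearly coincided and lay below both WT samples, with a difference of -4.20 (SE 0.47, adjusted p = 0.245), or 18.4-fold. LOC675694 had 0.51 and 0.76 in Auto.Neg and 4.91 and 4.60 in WT (difference -4.12, SE 0.223, adjusted p = 0.146). LOC669070, the near neighbour in sequence of ENSMUST00000066275, had 0.25 and 0.64 in Auto.Neg and 4.05 and 3.19 in WT (difference -3.17, SE 0.373, adjusted p = 0.245). L18942, the VJ probe, was low as well, at 0.94 and 1.49 in Auto.Neg, against 5.01 and 3.78 in WT (difference -3.18, SE 0.471, adjusted p = 0.294).

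The other 6 of the 10 units furthest below WT, Igkv19-93, Igkv10-95, ENSMUST00000089796, X75105, Igkv1-133 and Igkv4-63, had differences of -3.47 to -2.91 and adjusted p of 0.245 to 0.583. Igkv9-120 differed between the 2 Auto.Neg samples, at 0.07 and 3.30, against 4.52 and 4.61 in WT. ENSMUST00000066275 was lower too, at 2.62 and 3.71 in Auto.Neg and 5.75 and 4.98 in WT (difference -2.20, adjusted p = 0.674). U55685 and LOC669091 were at 4.58 and 4.55 and at 3.15 and 3.46 in Auto.Neg; in WT they were at 4.18 and 3.43 and at 2.97 and 2.03, below both Auto.Neg samples in each unit. No slide or scan day holds both groups. Within the protocols, Auto.Neg 1 against WT 2 had a median of -1.66 with 40 of 45 lower, and Auto.Neg 2 against WT 1 had -2.04 with 43 lower. Auto.Neg 2 and WT 1 were read on different scanners, with software versions 9.1.1.1 and 9.1.3.1.

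**Figure D3:**
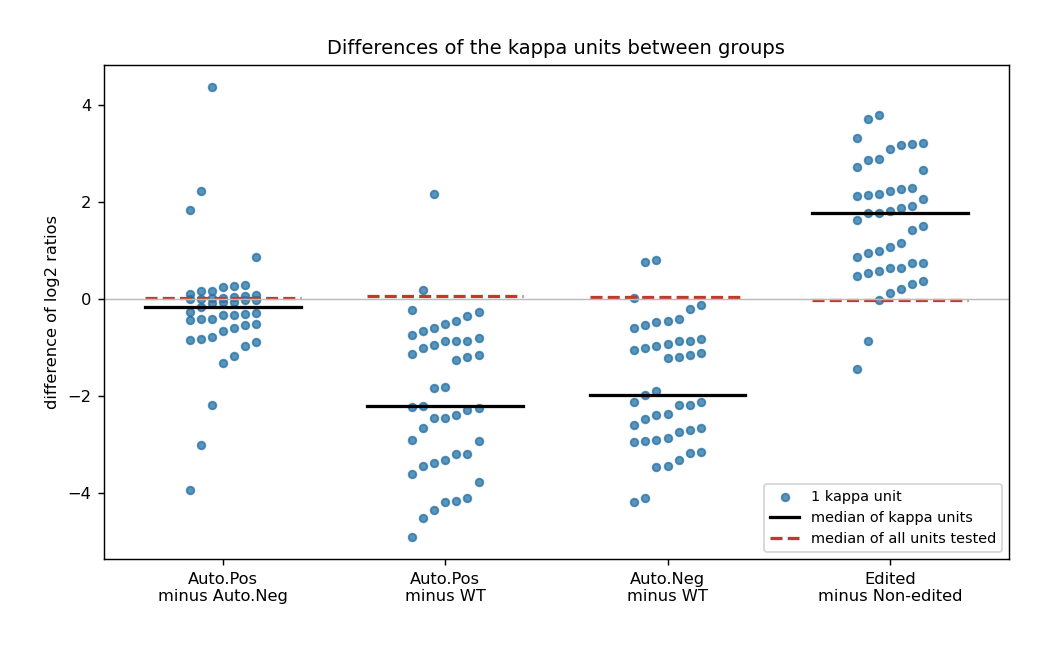
Difference in log2 ratio of each of the 45 kappa units (points) in the 4 comparisons, with the median of the kappa units and that of all 20462 tested units marked. The medians are -0.16, -2.21, -1.98 and 1.77 for Auto.Pos minus Auto.Neg, Auto.Pos minus WT, Auto.Neg minus WT and Edited minus Non-edited, and those of all units lie within 0.07 of 0.

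The comparison of the 2 transgenic groups asks which V kappa units differ with the light-chain transgene and its antigen. The median difference of Auto.Pos minus Auto.Neg was -0.16 log2, against 0.02 over all units, with 15 units higher and 30 lower; over the 36 units it was -0.33, with 11 higher and 25 lower. By limma 0 kappa units passed an adjusted p of 0.05 (0.0147% of all units did, 3 in number, all V kappa 21 probes), and 7 kappa units and 213 of all units had an unadjusted p under 0.05. With scan day as a random block 7 kappa units were called, and 0.191% of all units. At least 2-fold higher in all 4 pairs were 3 units (0.108% over the array), and 3 were that much lower (0.108%). The direction of the median was not the same in both protocols: Auto.Pos 1 against Auto.Neg 2, which share a slide, gave -0.35 with 35 of 45 units lower, while Auto.Pos 2 against Auto.Neg 1 gave 0.07 with 19 lower.

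ENSMUST00000066275 was the unit furthest to the Auto.Pos side. The Auto.Pos samples read 7.81 and 7.25, the Auto.Neg samples 2.62 and 3.71. No pair of samples was closer than 3.54, and the difference was 4.37, or 20.7-fold (SE 0.484, limma adjusted p = 0.426). The adjusted p was 0.044 with the scanner protocol as a block, and no other kappa unit passed the threshold in that fit. The second probe of the transcript gave 0.15 and 2.05 for Auto.Pos and 1.01 and 1.74 for Auto.Neg, a difference of -0.28, so the excess was on the first probe.

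L18942 and ENSMUST00000080848, a unit annotated as similar to the S107B V region, were the other 2 on the Auto.Pos side. The Auto.Pos values of L18942 were 3.63 and 3.25, its Auto.Neg values 0.94 and 1.49 (difference 2.23, SE 0.471, adjusted p = 1). Those of ENSMUST00000080848 were 4.90 and 4.84 for Auto.Pos and 3.22 and 2.86 for Auto.Neg (difference 1.83, SE 0.216, adjusted p = 0.485), while its second probe, outside the rule, gave -0.35. Neither unit was above WT in Auto.Pos: WT had 5.01 and 3.78 for L18942 and 5.32 and 5.12 for ENSMUST00000080848.

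U55685, the V-J probe of an anti-DNA light chain, was the unit furthest to the Auto.Neg side. Its Auto.Pos samples were at 0.48 and 0.74 and its Auto.Neg samples at 4.58 and 4.55, with no overlap. The difference was -3.95, or 15.5-fold lower (SE 0.304, adjusted p = 0.121), the lowest adjusted p of a kappa unit here. LOC669091 was on the same side, with Auto.Pos samples at 0.16 and 0.41 and Auto.Neg samples at 3.15 and 3.46 (difference -3.02, SE 0.365, adjusted p = 0.485). Igkv14-111 was low in Auto.Pos and intermediate in Auto.Neg, at 0.33 and 0.71 against 2.90 and 2.54 (difference -2.20, SE 0.31, adjusted p = 0.897), and in WT it was higher than in either.

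Igkv6-14, the unit whose description names Vk19, differed by -0.16 (SE 0.47, adjusted p = 1) between Auto.Pos and Auto.Neg. Its samples overlapped, and the Auto.Pos 1 reading was not well above background. LOC669070 gave 1.09 and 1.56 for Auto.Pos and 0.25 and 0.64 for Auto.Neg (difference 0.88, SE 0.373, adjusted p = 1). Its probe shares 36 of 40 overlapping bases with that of Igkv6-14. LOC636857 and ENSMUST00000095824 split within the groups: LOC636857 gave 1.92 and 3.27 for Auto.Pos and 3.85 and 2.18 for Auto.Neg, and the lower sample of each group is the one read under the earlier of the 2 extraction protocols. The Auto.Pos values of ENSMUST00000095824 were 0.59 and 2.13 and its Auto.Neg values 2.74 and 1.18, split the same way.

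Edited against Non-edited asks what light-chain editing changes in B cells of the same cross. Each group is 1 sample, so no test was made, and the difference has no replicate check. The median difference was 1.77 log2, against -0.03 over all units, with 42 of 45 units higher in Edited and 3 lower. Over the 36 units it was 1.99, with 33 higher and 3 lower. At least 2-fold higher in both dye orientations were 26 units (1.23% over the array), all of them among the 36, and 1 was that much lower (0.172%).

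Among the units well above background in both samples Igkv6-14 had the largest difference, with a log2 ratio of 4.43 in Edited, against 0.63 in Non-edited. The difference of 3.80 is 13.9-fold, and was 3.87 with the samples in Cy5 and 3.73 with them in Cy3. LOC669070 had 3.96 in Edited and 0.25 in Non-edited, where it was not well above background on either array, so it was at least 13.1-fold higher. ENSMUST00000089796 read 5.91 in Edited and 2.59 in Non-edited, a 9.97-fold difference. LOC213481, annotated as the 17-1A hybridoma chain, had 4.75 in Edited and 1.54 in Non-edited, and Igkv1-133 had 4.16 in Edited and 0.96 in Non-edited. Igkv9-120, Igk-V1, LOC675694, ENSMUST00000072469 and Igkv2-116 completed the 10 largest, with differences of 3.17 to 2.72.

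U55685 ran against the others: it was 5.12 in Edited and 6.56 in Non-edited, a difference of -1.44, or 2.71-fold lower. LOC669091 was the second unit on that side, at 2.98 in Edited and 3.84 in Non-edited. Both are the units that were high in Auto.Neg. ENSMUST00000066275 was 6.37 in Edited and 4.20 in Non-edited, and its second probe 6.17 in Edited and 0.44 in Non-edited, so here both probes were higher in Edited.

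**Figure D4:**
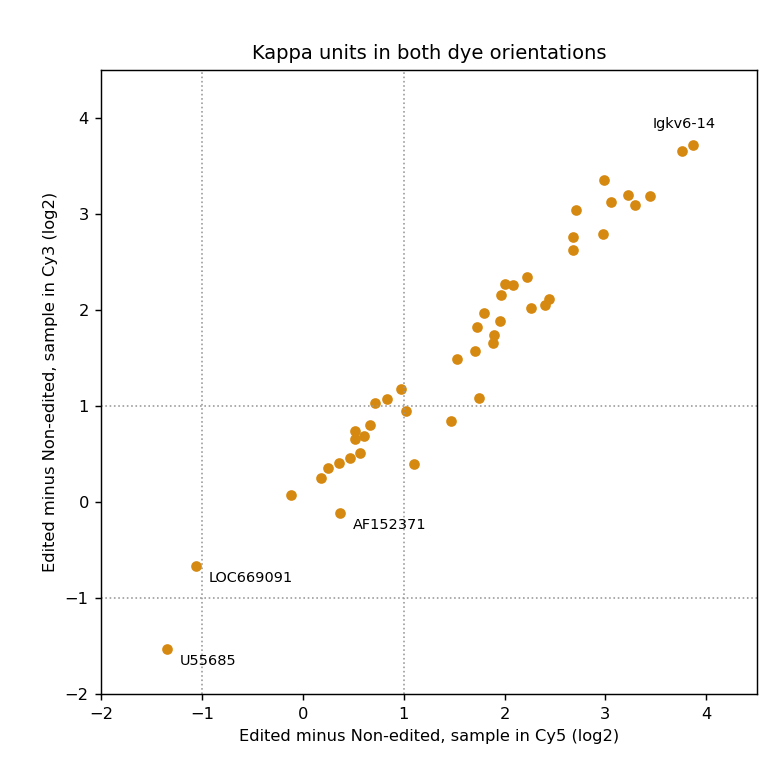
Edited minus Non-edited difference of each of the 45 kappa units in log2, with the samples in Cy5 on the horizontal axis and in Cy3 on the vertical axis. The points lie along the diagonal; Igkv6-14 is at 3.87 and 3.73, and U55685, at -1.35 and -1.53, is the only unit past 2-fold on the lower side in both.

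Across the 45 units, the profile of Edited correlated with WT 1 and WT 2 at Pearson's r of 0.926 and 0.903, and with Non-edited at 0.779. The profile of Non-edited correlated with Auto.Neg 1 and Auto.Neg 2 at 0.927 and 0.885. Auto.Pos 1 and Auto.Pos 2 correlated at 0.943, and their correlations with WT were 0.519 to 0.645. Over all 20462 units the same correlations were 0.924 and 0.920 for Edited with WT, 0.973 for Edited with Non-edited, 0.976 and 0.896 for Non-edited with Auto.Neg 1 and Auto.Neg 2, and 0.904 between the Auto.Pos samples. Edited, Non-edited and Auto.Neg 1 share a scan day. These are across units that share probe letters and a reference, and are descriptions only.

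The medians were below WT on both strands and in both parts of the locus. For Auto.Pos minus WT, the median was -2.36 over the 14 units of the plus strand and -2.02 over the 28 of the minus strand. The 21 units at lower coordinates, 67542113 to 69211877, had a median of -2.46 and the 21 at higher coordinates, 69362783 to 70475571, -1.01. For Auto.Neg minus WT the same parts had -2.37 and -1.01, and for Edited minus Non-edited 2.14 and 1.77. Every unit with a family in its symbol was lower in Auto.Pos than in WT: the 3 Igkv1 units by -3.46 to -2.25 and the 3 Igkv4 units by -3.33 to -2.22. In Edited against Non-edited the Igkv1 units were higher by 2.14 to 3.19 and the Igkv4 units by 1.42 to 2.28.

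Over the 8 samples the units tended to move together, with a median Pearson's r of 0.783 over 990 pairs of units and 26.4% of pairs above 0.9. U55685 and LOC669091 were most like each other (r = 0.973) and like V kappa 21 probes, 0.936 to 0.954 for U55685 and 0.959 to 0.976 for LOC669091 in the 3 V kappa 21 probes most like each. L18942 was most like ENSMUST00000080848 (r = 0.946). ENSMUST00000066275 reached no more than 0.771 with another kappa unit.

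No gene of light-chain assembly or of the receptor was called between the replicated groups. Of all units on the array, 0% were called in either comparison with WT and 0.0147% for Auto.Pos minus Auto.Neg. The lack of a call therefore does not show that these genes were unchanged. Rag1 cuts at the recombination signals, Dntt adds bases at junctions, and Vpreb1, Vpreb2 and Igll1 form the surrogate light chain. With Vpreb3 they were the 6 tested of the 7 recombination and surrogate light-chain genes listed. Their median difference was 0.27 for Auto.Pos minus WT and 0.36 for Auto.Neg minus WT. In Edited all 6 were below Non-edited, by -0.76 to -0.45, and none by 2-fold. Of the receptor partners, which include the signalling chains Cd79a and Cd79b, 5 of 6 were tested, with medians of -0.04 to 0.12. The 2 lambda chain units, the alternative light chain, were lower in Auto.Pos than in WT by -0.53 and -0.29. Neither was called, nor was any unit of the array.

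Ratios of cell type markers are relative to the 6 reference cell lines and do not give the share of a cell type. The follicular markers Fcer2a and Cr2 were far above the reference in every sample, with log2 ratios of 7.10 to 8.40 and 5.28 to 7.04, and Ms4a1, which encodes CD20, was at 8.60 to 9.57. Some markers of other cells were above the reference in every sample too, the neutrophil gene S100a9 at 5.89 to 7.37 and the macrophage genes Adgre1 at 3.06 to 5.62 and Csf1r at 2.35 to 4.21. The macrophage gene Cd68 was below it, at -1.51 to -0.38. Of the T cell genes, Cd3d, Cd3g and Thy1 lay between -5.72 and -3.73, Lck at -2.35 to -0.14 and Cd3e at -0.79 to -0.22. Of the plasma cell genes, Sdc1 and Jchain lay between -4.37 and -1.93 and Prdm1 at -3.12 to -1.89. Xbp1, at -1.61 to 0.85, and Irf4, at -0.36 to 1.05, lay around the reference. No marker of any list was called between the replicated groups, which does not show that the markers were unchanged. In either comparison with WT 0% of all units were called, and 0.0147% for Auto.Pos minus Auto.Neg. Of the 5 plasma cell genes, whose cells make the most light-chain RNA, all 5 read lower in Auto.Pos than in WT, by -1.13 to -0.08, and 4 of 5 lower in Auto.Neg than in WT, with Sdc1 at -1.77. All 4 macrophage markers read lower as well, by -0.73 to -0.35 in Auto.Pos and by -1.24 to -0.39 in Auto.Neg. Of the 5 T cell markers 3 read higher than in WT and 2 lower in each transgenic group, with Lck at -1.30 in Auto.Pos and -0.89 in Auto.Neg. The 4 neutrophil markers differed from WT by -0.93 to 0.32 in Auto.Pos and by -0.63 to 0.48 in Auto.Neg. Between Auto.Pos and Auto.Neg the medians of the B cell, follicular, plasma cell, T cell, macrophage and neutrophil lists lay between -0.03 and 0.23. In Edited, 4 of 5 plasma cell genes read higher than in Non-edited and Xbp1 was lower at -1.03, while all 4 macrophage markers were higher, by 0.08 to 1.49, all 4 neutrophil markers were lower, by -1.90 to -0.40, and of the T cell markers Lck was higher by 1.86 and the other 4 lower. The part of these cells in the kappa differences was not tested.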

How the data were processed

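Per the file headers, the scanner files give the intensity of each spot and of its local background in red and green, with a log10 ratio, as written by Agilent Feature Extraction. The deposited series table holds a log2 ratio for each array; the submitters' processing notes name limma. Amplified RNA (from 100 ng) of every sample was labelled in both dye orientations, per the labels' protocols. Intensity was analysed: normexp background correction (offset 50), loess within arrays with control spots at weight 0, outlier spots dropped, log2 of sample over reference, then the mean of each dye-swap pair. Of 41174 probes 29640 passed the filter on dim probes. limma 3.58.1 (R 4.3.3) was fitted to all 8 samples with a mean per group (3 residual and 2.11 prior degrees of freedom), with Benjamini-Hochberg adjustment over 20462 units, and was tested on simulated data. Of the units, 6 lacked a sample, and 356 unit-by-sample values rest on 1 array. Figures were drawn with matplotlib 3.10.9 in Python 3.11.15. Depth is not counted on arrays; their number limits the precision.

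A bound ("at least N-fold") sets the bright group's mean log2 signal against, on each array of the dim group, the higher of the dim probe's own signal and the lowest signal among probes well above background, or gives the fold of the ratios where that is smaller. Units named are, in each comparison, those called and the up to 10 largest each way among those that are 2-fold or more apart in every pair of samples (Edited: in both dye orientations), with the units tied to the transgene's family and the brightest and dimmest; others were added after their values were seen: LOC636857, ENSMUST00000095824 and U29594. The members and lists were chosen with earlier results of these data known. Of 16 columns in the deposited series table, 6 match their own array best and 10 another array, 2 columns run as reference over sample, and 0 belong to no sample, so the table served only as an alternative.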

Additional observations from a re-analysis of the deposited data

How the results depend on the processing

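Alternatives to the background correction, normalization, filter, probe choice, samples and blocks were run. Of the values for single named units, 874 stayed the same, 60 passed the threshold with the same direction, 19 moved and 18 reversed. In the tested comparisons, the same means an unchanged direction and no call in either fit. Edited minus Non-edited has no threshold. There the same means a shift smaller than the unit's spread between replicates of the other groups, and moved means a larger one. With 2 samples a group and 3 residual degrees of freedom, calls are few and depend on the estimate of the spread. Kappa units called for Auto.Pos minus Auto.Neg numbered 10 in the series table as labelled (with 37.4% of all units), 1 with the scanner protocol block (0.0293%), 7 with scan day as a random block (0.191%) and 3 on the Cy5 arrays alone (0.0586%). For Auto.Pos minus WT they numbered 5 with the scanner LogRatio (0.0733% of all units), 4 in the rematched table (0.0684%), 36 with scan day as a random block (20.4%) and 20 on the Cy5 arrays (0.352%). For Auto.Neg minus WT they numbered 9 in the table as labelled (33.7%), 1 rematched (0.00489%), 19 with scan day (2.24% of all units) and 18 on the Cy5 arrays (0.293%). The fit with the replicate block called 0 kappa units in each comparison, and 0% of all units. The numbers did not pair the samples. The correlation of same-numbered deviations was -0.788 for Auto.Pos with Auto.Neg, 0.252 for Auto.Pos with WT and -0.28 for Auto.Neg with WT. The crossed pairing of Auto.Pos with Auto.Neg and of Auto.Neg with WT is the scanner protocol block. Slide as a random block could not be fitted, since 1 of 7 slides holds 2 samples. Leaving out each replicate gave medians of -0.287 to 0 for Auto.Pos minus Auto.Neg (0 without Auto.Pos replicate 1). The medians were -2.335 to -1.737 for Auto.Pos minus WT, and -2.244 to -1.62 for Auto.Neg minus WT.

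Medians also moved. That of Auto.Pos minus Auto.Neg was -0.702 with the scanner LogRatio, 2.748 in the table as labelled and -0.418 over units well above background on every array. That of Auto.Pos minus WT was -2.668 with the LogRatio, 0.249 in the table as labelled, -1.919 over all probes of a unit, -1.719 with scan day, -2.536 on Cy5 and -1.636 on Cy3 arrays. That of Auto.Neg minus WT was -2.536 in the table as labelled, -2.181 over units well above background on every array, -1.333 with scan day, -2.19 over the 36 units that did not need WT or Edited to be tested (a setting added after the data were seen), -2.437 on Cy5 and -1.342 on Cy3 arrays. For Edited minus Non-edited, the units 2-fold lower numbered 0 with median centring, 2 at 1.5-fold and 0 at 4-fold, where 17 were higher. In the table as labelled, whose columns mix the groups, Auto.Pos minus Auto.Neg turned to 2.958 for U55685, 2.19 for LOC669091, 3.427 for Igkv14-111, 4.062 for Igkv6-14 and 5.961 for AF152371. Auto.Pos minus WT turned to 0.249 for Igkv6-14, 0.122 for ENSMUST00000089796, 0.162 for Igkv10-95, 0.192 for Igk-V1, 0.346 for Igkv1-133, 0.369 for X75105, 1.412 for LOC669070, 0.169 for AF152371, 0.442 for LOC673126 and 1.801 for L18942. Leaving out each replicate, Auto.Pos minus Auto.Neg of AF152371 ranged from -0.451 to 0.306 (above 0 without Auto.Neg replicate 2, and 0.138 without Auto.Pos replicate 2), and that of Igkv6-14 from -0.804 to 0.483 (above 0 without Auto.Pos replicate 1). Other than in the table as labelled, the cause was not tested.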

Other observations

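Of the probes in the kappa locus that the rule did not take, 3 were chosen after their values were seen. BF578595, an expressed sequence tag (chr6:70233777-70233836), had log2 ratios of 6.56 and 6.10 in Auto.Pos, 1.55 and 2.36 in Auto.Neg, 5.12 and 4.40 in WT, 5.60 in Edited and 2.87 in Non-edited. NAP061491-1, whose description is unknown (chr6:70389786-70389854), had 6.73 and 6.15 in Auto.Pos, 1.44 and 2.48 in Auto.Neg, 3.76 and 2.83 in WT, 4.99 in Edited and 3.53 in Non-edited. Over the 8 samples they followed ENSMUST00000066275 at Pearson's r of 0.986 and 0.964. The differences of Auto.Pos minus Auto.Neg were 4.38 for BF578595 (limma adjusted p = 0.236) and 4.48 for NAP061491-1 (adjusted p = 0.427).

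BC108385 (chr6:70690221-70690280) had -0.93 and -0.06 in Auto.Pos, 5.43 and 5.70 in Auto.Neg, 4.55 and 4.10 in WT, 4.75 in Edited and 5.97 in Non-edited. Its difference of Auto.Pos minus Auto.Neg was -6.06 (limma adjusted p = 0.0602), and it followed LOC669091 at r of 0.982 and U55685 at 0.954.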
